A study of Homo sapiens with 6 samples.

Results

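The genes described are 10 that Wnt signalling switches on or that mark stem cells of the intestinal crypt: LGR5, ASCL2, AXIN2, RNF43, ZNRF3, NKD1, NKD2, MYC, SOX9 and TCF7. Members were the probe sets that the platform annotation pairs with exactly 1 gene symbol equal to one of these names. Of the 10 genes, 9 were measured, by 22 of 44988 probe sets with 1 symbol, among 18132 genes in all, and TCF7 was not analysed here. Because the genes were proposed after the difference between the arrays was known, that difference is described for them and not tested.

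Expression was measured on Affymetrix arrays in cells labelled TPC-1, a human line from papillary thyroid carcinoma, described as carrying a lentivirus with an shRNA against FAM60A or with a control shRNA. Each group held 3 samples, 1 array per sample, and the label protocols give the same medium and serum for both. FAM60A is now called SINHCAF and encodes part of the SIN3 histone deacetylase co-repressor. The sample titles name TPC-1, whereas the extraction protocol names DLD1, a human colorectal cancer line, and the labels do not say whether the samples of a group came from separate cultures, so the spread between them may be technical. Neither the shRNA sequence nor the number of shRNAs or clones is given in the sources used here.

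The gene named by the shRNA ran against the labels. SINHCAF had log2 values of -0.58, -0.66 and -0.68 in the arrays labelled control shRNA and 0.63, 0.57 and 0.60 in those labelled FAM60A shRNA. Its difference of 1.24 (SE 0.038, n = 3 per group) was a 2.36-fold higher signal (limma, adjusted p = 1.08e-06; two-sided exact permutation p = 0.1, the smallest that 3 against 3 arrays can give). Groups are therefore named by their labels, and higher or lower always means the arrays labelled FAM60A shRNA relative to those labelled control shRNA, not relative to a measured loss of SINHCAF.

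In Wnt signalling a secreted Wnt ligand binds a Frizzled receptor with LRP5 or LRP6, which stops a cytoplasmic complex of APC, AXIN and GSK3 from marking beta-catenin for destruction. Beta-catenin then enters the nucleus and activates genes bound by TCF and LEF factors. Some of these targets drive growth or a stem cell state, and others are feedback inhibitors that damp the pathway. In the intestinal crypt this output maintains the LGR5-positive stem cells, and in colorectal cancers with a broken destruction complex it stays on.

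All 9 measured genes were higher in the arrays labelled FAM60A shRNA, in every array and in each of their 22 probe sets. Values are log2 signals relative to the median of the probe set over the 6 arrays, averaged over the probe sets of a gene, so they show differences between arrays and not which gene is expressed more. The stem and growth genes LGR5, ASCL2, MYC and SOX9 had a median difference of 1.84, and the feedback inhibitors AXIN2, NKD1, NKD2, RNF43 and ZNRF3 one of 1.15, beside -0.01 over all genes. Of the 9 genes, 8 were at least 2-fold higher, where 1.20% of all genes were and 0.292% were at least 2-fold lower. In all 9 the adjusted p was under 0.05 and the groups did not overlap, beside 19.8% of all genes called higher, 25.0% called lower and 23.7% higher without overlap. All 22 probe sets were called higher without overlap as well, beside 18.4% and 22.7% of the probe sets tested. These shares stand only as a description, since the same difference was in view when the genes were chosen.

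**Figure D1:**
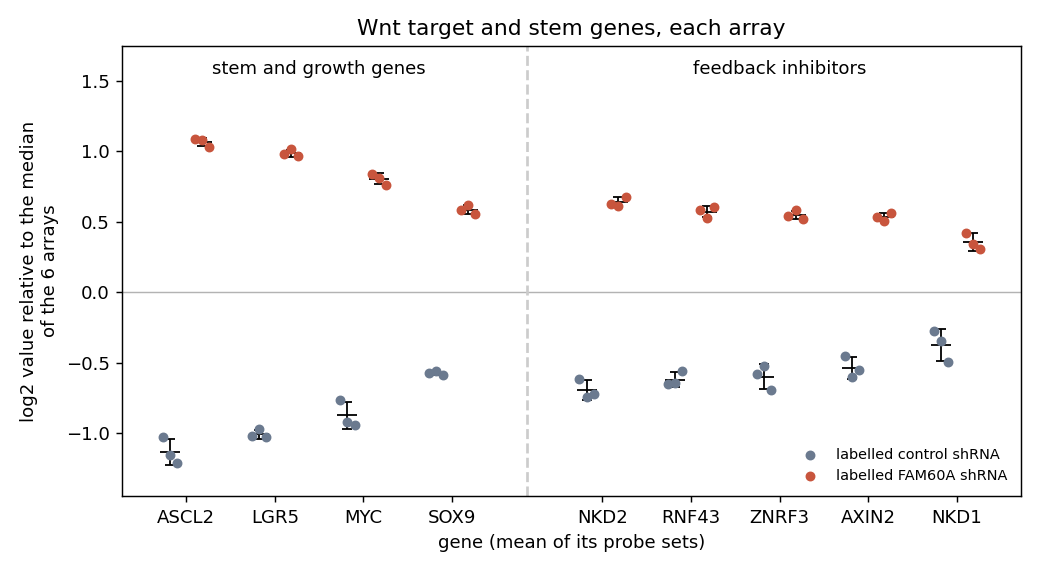
Log2 value relative to the median of the 6 arrays (vertical axis) for each measured gene (horizontal axis), with a point per array and the mean ± SD of 3 arrays. The arrays labelled FAM60A shRNA lay above 0 and those labelled control shRNA below 0 in all 9 genes, from ASCL2 with a difference of 2.20 to NKD1 with 0.73.

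LGR5 (Entrez gene 8549) encodes the R-spondin receptor that marks crypt base stem cells. Its values were -1.02, -0.97 and -1.03 in the arrays labelled control shRNA and 0.98, 1.02 and 0.96 in those labelled FAM60A shRNA, with little spread inside either group. The means were -1.01 ± 0.032 and 0.99 ± 0.026 (SD, n = 3 each), and the difference of 2.0 (SE 0.033) corresponds to 3.99-fold, with a 95% interval of 3.78 to 4.21. Its 2 probe sets disagreed on the size, at 2.71 (SE 0.062) and 1.28 (SE 0.064), so the gene value lies between 2 quite different readings. The interval is that of their mean and covers neither reading. The larger reading, a 6.54-fold difference, was the largest among the 22 probe sets.

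ASCL2 (Entrez gene 430), the basic helix-loop-helix factor that sets the stem cell programme together with beta-catenin, showed the largest gene difference. The 3 arrays labelled control shRNA read -1.03, -1.15 and -1.21 and the 3 labelled FAM60A shRNA 1.09, 1.08 and 1.03. The gap of 2.20 (SE 0.050, n = 3 per group), or 4.60-fold with a 95% interval of 4.23 to 4.99, was many times the SD of 0.092 among the control arrays. It placed ASCL2 at position 15 of 18132 genes ordered from the highest difference, with LGR5 at 23 and MYC at 40, and by size in either direction the positions were 15, 24 and 41. ASCL2 was read by 1 probe set, so no second probe set checks its size.

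MYC (Entrez gene 4609), the transcription factor that drives ribosome production and growth, read -0.76, -0.92 and -0.94 in the arrays labelled control shRNA. It read 0.84, 0.81 and 0.76 in those labelled FAM60A shRNA. The first control array was the highest of its group, and the gap to the other label was still 1.68 (SE 0.053, n = 3 per group), or 3.21-fold, from 1 probe set.

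SOX9 (Entrez gene 6662), a high mobility group factor of progenitor and Paneth cells, had the closest probe sets of the 5 genes read by several. Its 3 probe sets gave 1.15, 1.16 and 1.18, and their mean read -0.57, -0.56 and -0.59 in the control label against 0.58, 0.62 and 0.56 in the other. The difference was 1.16 (SE 0.032, n = 3 per group), or 2.23-fold.

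RNF43 and ZNRF3 are related membrane-bound ubiquitin ligases that remove Frizzled receptors from the cell surface, and R-spondins bound to LGR receptors relieve that brake. RNF43 (Entrez gene 54894) read -0.65, -0.65 and -0.56 in the control label and 0.58, 0.53 and 0.60 in the FAM60A shRNA label. ZNRF3 (Entrez gene 84133) read -0.58, -0.52 and -0.70 against 0.54, 0.58 and 0.52. Neither gene had overlapping groups, and their differences of 1.19 (SE 0.039) and 1.15 (SE 0.049) had overlapping 95% intervals, at 2.29-fold and 2.22-fold. ZNRF3 rests on 1 probe set, whereas the 6 probe sets of RNF43 ran from 0.38 to 1.73.

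NKD1 and NKD2 are naked cuticle proteins that bind dishevelled, the adaptor downstream of Frizzled. NKD2 (Entrez gene 85409) read -0.61, -0.74 and -0.72 against 0.63, 0.61 and 0.68, a difference of 1.33 (SE 0.044, n = 3 per group) from 1 probe set. NKD1 (Entrez gene 85407) had the smallest difference and the widest control arrays of the 9, with -0.28, -0.34 and -0.50 against 0.42, 0.34 and 0.30. Its difference was 0.73 (SE 0.063), or 1.66-fold with a 95% interval of 1.5 to 1.84, which did not reach the interval of NKD2, 2.35 to 2.71. The 4 probe sets of NKD1 ran from 0.27 to 1.21.

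AXIN2 (Entrez gene 8313), a scaffold of the destruction complex and the most widely used readout of beta-catenin activity, read -0.46, -0.60 and -0.56 against 0.53, 0.51 and 0.56. The difference of 1.07 (SE 0.045, n = 3 per group) was 2.10-fold, with an interval of 1.95 to 2.26. Of its 3 probe sets, 1 gave 1.43 and the others 0.97 and 0.82.

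**Figure D2:**
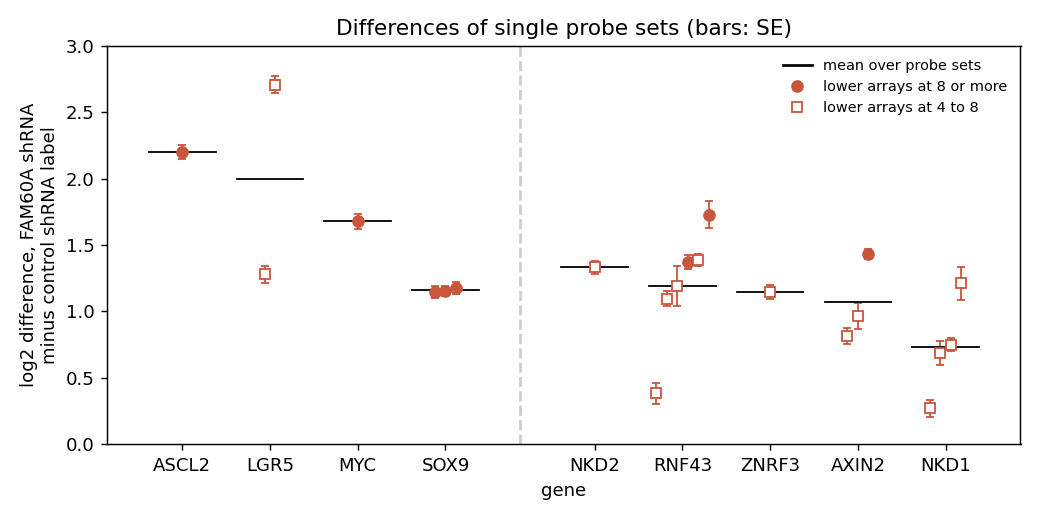
Log2 difference of each of the 22 probe sets (vertical axis, FAM60A shRNA minus control shRNA label, bars SE) by gene (horizontal axis), with a line at the gene mean and filled circles where the lower arrays had a level of 8 or more. SOX9 probe sets sat together at 1.15 to 1.18, whereas those of LGR5, RNF43, AXIN2 and NKD1 were spread.

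Ordered by the size of the gene mean, ASCL2, LGR5 and MYC stood apart from each other and from the rest, with 95% intervals that did not overlap between neighbours. The next 5, NKD2, RNF43, SOX9, ZNRF3 and AXIN2, ran from 1.33 to 1.07, and each overlapped its neighbour. RNF43 and SOX9 differed by 0.034 (SE 0.055) and SOX9 and ZNRF3 by 0.011 (SE 0.042). NKD1 lay below AXIN2 by 0.34 (SE 0.074). Differences between genes also carry differences between probe sets, which within LGR5 were larger than any gap between neighbouring genes. The order holds for the mean of probe sets: by the probe set of largest variance LGR5 (2.71) came before ASCL2 (2.20), RNF43 (1.73) before MYC (1.68), AXIN2 reached 1.43, and NKD1 (1.21) came before SOX9 (1.18) and ZNRF3 (1.15).

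The deposited values keep a trace of the level before each probe set was centred on its median, since single-precision numbers are rounded in steps that double at levels of 2, 4 and 8. The step gives a coarse class for the arrays with the lower signal. Among the 22 probe sets, 8 had their lower arrays at 8 or more, 14 at 4 to 8 and 0 in the lowest class, which held 11654 of all 44988. ASCL2, MYC and all 3 probe sets of SOX9 were in the highest class, as were 2 of 6 of RNF43 and 1 of 3 of AXIN2. Both probe sets of LGR5 and those of NKD1, NKD2 and ZNRF3 were in the class of 4 to 8. Within AXIN2 and RNF43 the probe set with the largest difference was one of the highest class.

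Arrays of one label also differed slightly among themselves in these genes. Among the arrays labelled control shRNA, replicate 1 was the highest in 5 of 9 genes and replicate 3 the lowest in 6, with median deviations from the group mean of 0.080 and -0.028. Among those labelled FAM60A shRNA, replicate 3 was the lowest in 6. These deviations were small beside the smallest gene difference of 0.73.

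RefSeq promoter windows on GRCh38.p14 were matched by symbol for 3 of the 10 genes, and those of the measured genes RNF43 and NKD2 are shown because both are feedback genes that were higher with the same label. Each is the 250 bases before an annotated start, on the gene's strand, and capitals mark CTTTG or its reverse complement CAAAG, the core of the letters that TCF and LEF factors prefer. RNF43 has 2 annotated starts, at chr17:58417535-58417784 and chr17:58402722-58402971 (minus strand), and NKD2 has 1 at chr5:1008552-1008801 (plus strand).
RNF43 upstream start: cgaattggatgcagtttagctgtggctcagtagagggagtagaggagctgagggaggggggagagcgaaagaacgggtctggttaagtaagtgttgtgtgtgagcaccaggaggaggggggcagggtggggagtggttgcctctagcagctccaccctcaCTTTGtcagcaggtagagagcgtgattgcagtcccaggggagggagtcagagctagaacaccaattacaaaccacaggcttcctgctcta
RNF43 downstream start: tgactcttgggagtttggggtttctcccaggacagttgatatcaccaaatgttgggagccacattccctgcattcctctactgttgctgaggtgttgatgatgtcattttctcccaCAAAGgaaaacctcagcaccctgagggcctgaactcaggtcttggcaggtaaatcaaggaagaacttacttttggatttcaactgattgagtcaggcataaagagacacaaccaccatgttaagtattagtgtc
NKD2: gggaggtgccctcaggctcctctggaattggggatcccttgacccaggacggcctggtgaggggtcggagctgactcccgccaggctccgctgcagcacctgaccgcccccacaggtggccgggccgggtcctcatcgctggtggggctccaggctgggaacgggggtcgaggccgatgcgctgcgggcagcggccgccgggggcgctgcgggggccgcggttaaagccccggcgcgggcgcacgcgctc
Each RNF43 window holds 1 core and the NKD2 window holds 0, where 42.1% of 35116 windows of this length hold at least 1. The longer forms in which the core is followed by AA, AT, TA or TT, searched on both strands, occur in 0 of these 3 windows and in 12% of all, each of them containing the core. The windows also differ in base composition, with a G and C content of 56.0% and 45.2% for RNF43 and 75.6% for NKD2, against a median of 58.0%. The windows of TCF7, whose expression was not measured, are not shown. The one at chr5:134115363-134115612 holds 0 cores. The one at chr5:134123368-134123617 holds 2 cores and 1 of the longer forms, CTTTGTT on the minus strand. A match is a description of letters, and its absence concerns only these windows.

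Paralogs are members of the same gene families. Among 12 measured, 9 of them relatives of the measured genes and 3 of TCF7, 7 were higher, 0 lower and 5 did not pass (limma, adjusted p under 0.05 over all genes, n = 3 per group, here and for the lists that follow), with a median of 0.16. That is 58.3% called, beside 44.9% of all genes. By gene means, the 9 relatives of measured genes each had a smaller difference than the described gene of their family. The described genes were chosen with this difference in view, so that order is a description only. LGR6, an R-spondin receptor like LGR5, rose by 1.09 (SE 0.10, adjusted p = 1.15e-04), from -0.83, -0.43 and -0.53 to 0.62, 0.44 and 0.43. LGR4, the broadly expressed receptor of that family, rose by 0.29 as a mean, but of its 2 probe sets 1 gave 0.64 and passed and the other gave -0.05. Without the probe sets whose names end in x_at or s_at, LGR4 turned to -0.05 and did not pass.

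Paralogs of MYC and SOX9, both transcription factors, also lay below them. MYCL rose by 0.56 (SE 0.072, adjusted p = 5.06e-04), with 2 of its 4 probe sets in the lowest class and 1.36 by the probe set of largest variance. MYCN had -0.0014 (adjusted p = 0.98), though it passed as lower by its probe set of largest variance (-0.205) and as higher without the lowest class (0.122). SOX8 rose by 0.21 and SOX10 had 0.02 (adjusted p = 0.80). The 1 probe set of SOX8 and 1 of the 2 of SOX10 were in the lowest class. SOX8 did not pass without control replicate 3 (0.18) or without FAM60A replicate 2 (0.19) or 3 (0.18). ASCL3 and ASCL4 had -0.06 and 0.08 and did not pass.

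AXIN1, the constitutive paralog of AXIN2, had a difference of 0.10 (SE 0.033, adjusted p = 0.042). It lost that call when any 1 array other than FAM60A replicate 2 was left out, with differences over all 6 such fits from 0.088 to 0.12, and also when the test ran on the probe set of largest variance or without x_at and s_at probe sets (0.10 in both). Of the TCF and LEF factors that relate to TCF7, LEF1 rose by 0.57 (SE 0.037, adjusted p = 1.93e-05) and TCF7L2, the main intestinal factor, by 0.42 (SE 0.033, adjusted p = 4.62e-05). TCF7L2 read -0.19, -0.23 and -0.24 against 0.24, 0.18 and 0.19, and its 7 probe sets all passed, from 0.36 to 0.48. Those of LEF1 ran from 0.033 to 0.91, with 3 of 9 in the lowest class. TCF7L1, often a repressor, had -0.06 and did not pass (adjusted p = 0.38).

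**Figure D3:**
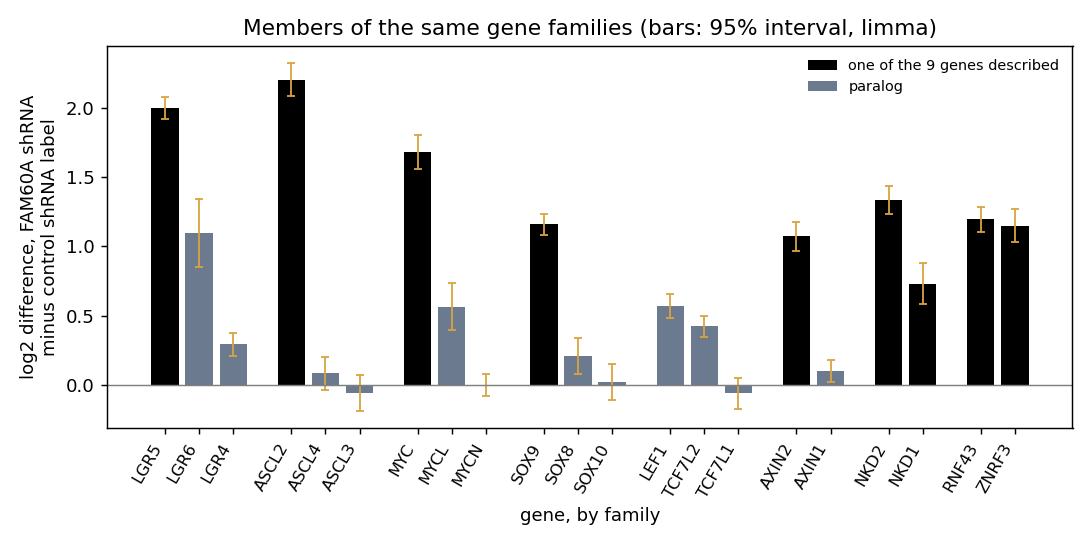
Log2 difference (vertical axis, FAM60A shRNA minus control shRNA label) by gene (horizontal axis, grouped by family), with 95% limma intervals, black for the 9 genes described and grey for paralogs. LGR6 at 1.09 was the highest paralog, and AXIN1 at 0.10 stood far below AXIN2 at 1.07. The described genes were chosen with this difference known.

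Other genes known as Wnt targets were mostly higher, in a list chosen with earlier results of these data known, so their direction is a description only. Among the 19 on the array, 14 rose, 2 fell and 3 missed the threshold, with a median of 0.59. The share called was 84.2% beside 44.9% of all genes, where 19.8% were called higher and 25.0% lower. Of their 84 probe sets, 33 were in the highest class and 14 in the lowest. The highest were BAMBI (1.39), a pseudoreceptor that damps TGF-beta signals, TCF4 (1.03), the helix-loop-helix factor also called ITF2 and not a TCF of this pathway, and the ETS factor ETS2 (1.02). TCF4 had 6 of 11 probe sets in the lowest class, and its probe sets ran from 0.082 to 1.76. BIRC5 (-0.67, or -1.11 by the probe set of largest variance), a survival and mitosis gene, and PLAUR (-0.38), the urokinase receptor, fell. CCND1, the cyclin D1 gene often cited as a target, had -0.06 (SE 0.030) and did not pass (adjusted p = 0.15), and its 4 probe sets lay between -0.10 and -0.03.

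MYC target genes, most of them nucleolar or biosynthetic, were also mostly higher, alongside MYC itself. Of these 21 genes, 16 rose and 2 fell, with 3 not past the test and a median of 0.34. That is 85.7% called beside 44.9% of all genes, where 19.8% were called higher and 25.0% lower. Of their 62 probe sets, 47 were in the highest class and 3 in the lowest, beside 11018 and 11654 of all 44988. The share is thus not set against genes of like level. This list too was chosen with earlier results of these data known, so its direction is a description only. NOLC1, a nucleolar chaperone, rose by 1.85 (SE 0.031, adjusted p = 1.31e-07) and ODC1, the first enzyme of polyamine synthesis, by 1.56 (SE 0.039, adjusted p = 5.51e-07). NOLC1 read -0.93, -0.98 and -0.93 against 0.88, 0.91 and 0.90, and its 3 probe sets lay between 1.79 and 1.94. HSPD1, a mitochondrial chaperonin, rose by 0.49, with 2 of its 7 probe sets at 1.17 and 1.01 and the others between 0.20 and 0.31. Its value was 0.28 with the median of probe sets and 1.17 without x_at and s_at probe sets. EIF4E (-0.38, or -0.57 by the probe set of largest variance), the cap-binding protein, and the transferrin receptor TFRC (-0.42) fell. Of 11 partners and antagonists of MYC, 5 rose, 1 fell and 5 did not pass, and the 54.5% called lay near the 44.9% of all genes. After MYCL the highest were MXI1 (0.50, or 1.1 by the probe set of largest variance) and MXD4 (0.25), antagonists that compete for MAX, though the probe sets of MXD4 ran from -0.29 to 0.68. MLX, the partner of the MondoA family, fell (-0.48).

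Of 15 other markers of crypt stem cells, 4 were called higher and 1 lower, and 10 missed the threshold, a share of 33.3% beside 44.9%, with a median of 0.08. Of their 39 probe sets, 18 were in the lowest class, which limits what this share can show. CDCA7 (0.97), SLC12A2 (0.86), an ion cotransporter of the crypt base, and TNFRSF19 (0.69), the TROY receptor, rose, and SOAT1 (-0.47) fell. Without x_at and s_at probe sets CDCA7 had 0.52 and TNFRSF19 0.44, and by its probe set of largest variance TNFRSF19 had 1.18. OLFM4 had 0.14 and SMOC2 0.01, neither past the test, and both probe sets of OLFM4 were in the lowest class. OLFM4 and SMOC2 were singled out after their values were seen, as the markers most often paired with LGR5.

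Genes of the ligands, receptors and core pathway went in both directions or did not pass. Of 23 Wnt ligands, R-spondins and secretion factors, 3 rose, 0 fell and 20 did not pass, and 20 of their 49 probe sets were in the lowest class. That is 13% called beside 44.9% of all genes. WNT10A rose by 0.89 (SE 0.046, adjusted p = 7.50e-06), from -0.44, -0.44 and -0.38 to 0.38, 0.50 and 0.53, by 1 probe set. WLS (0.60), the carrier that exports Wnt proteins, and WNT5A (0.28), a ligand best known outside the beta-catenin branch, also rose. Of the 5 probe sets of WNT5A, 3 were in the lowest class and 2 did not pass (0.070 and 0.024). Its value ran from 0.19 with the median of probe sets to 0.47 without the lowest class and 0.64 by the probe set of largest variance. The count of ligands past the test reached 5 without control replicate 2 and without control replicate 3.

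Among 17 receptors and co-receptors, 6 rose, 4 fell and 7 did not pass, a share of 58.8% called beside 44.9% of all genes, with a median of -0.06. LGR6 led, followed by the receptor kinase ROR1 (0.42) and FZD7 (0.39), a Frizzled of intestinal stem cells, while FZD6 (-0.59), FZD3 (-0.36) and ROR2 (-0.21, or -0.38 without the lowest class) fell. Of 17 secreted and surface antagonists other than the feedback inhibitors above, 5 rose, 0 fell and 12 did not pass. That is 29.4% called beside 44.9% of all genes, and 20 of their 37 probe sets were in the lowest class. TRABD2A (0.37), a protease of Wnt proteins, NOTUM (0.35), which removes their lipid and is itself a target gene, and KREMEN2 (0.32, or 0.48 without x_at and s_at probe sets), a DKK receptor, were the highest. TRABD2A did not pass without FAM60A replicate 1 (0.37), 2 (0.37) or 3 (0.37), and ranged from 0.24 to 0.44 over the 6 fits that left out 1 array.

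In the destruction complex and its regulators, 4 of 16 rose, 7 fell and 5 did not pass, with a median of -0.07. That is 68.8% called beside 44.9% of all genes. Of their 59 probe sets, 31 were in the highest class and 3 in the lowest, which limits what this share can show. BTRC (-0.52), the ubiquitin ligase subunit that recognises phosphorylated beta-catenin, read 0.23, 0.26 and 0.25 against -0.25, -0.30 and -0.27. The tankyrases TNKS (-0.47) and TNKS2 (-0.37), which mark AXIN for breakdown, fell as well (-0.87 and -0.78 by the probe set of largest variance). The dishevelled genes went both ways, with DVL1 (0.44) and DVL3 (0.24) higher and DVL2 (-0.32) lower. CSNK1A1, a kinase of beta-catenin, rose by 0.12, with 1 of its 11 probe sets past the test, and lost the call without control replicate 2 (0.12, adjusted p = 0.050) and with the median of its probe sets (0.063), against 0.56 by the probe set of largest variance. DVL3 did not pass by its probe set of largest variance (0.24). APC had -0.16 (adjusted p = 0.029), a call lost without control replicate 2 (-0.12) or 3 (-0.17) and without FAM60A replicate 2 (-0.13) or 3 (-0.17). It was also lost with the median of probe sets (-0.054), without the lowest class (-0.044) and after cyclic loess (-0.14), while the probe set of largest variance gave -0.40. CTNNB1, which encodes beta-catenin, had 0.071 (SE 0.028, adjusted p = 0.082), and passed after another quantile normalization (0.091, adjusted p = 0.042) and after cyclic loess (0.096, adjusted p = 0.034). It also passed by its probe set of largest variance (0.15) and without x_at and s_at probe sets (0.14).

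Of 17 nuclear partners, 8 were called higher and 4 lower, and 5 missed the threshold, a share of 70.6% called beside 44.9% of all genes. Of their 54 probe sets, 18 were in the highest class and 6 in the lowest. The co-repressor TLE1 (0.84), the acetyltransferase CREBBP (0.83) and the beta-catenin adaptor BCL9L (0.64) rose, with CREBBP at 0.48 without x_at and s_at probe sets. CTNNBIP1 (-0.27), which blocks beta-catenin from TCF, BCL9 (-0.26, or -0.39 by the probe set of largest variance) and PYGO2 (-0.24) fell. The probe sets of CTNNBIP1 ran from -0.66 to 0.11, with 2 of 4 past the test, and without x_at and s_at probe sets it had -0.14. In bulk RNA a change in the share of cells and a change in RNA per cell cannot be told apart for any of these genes.

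**Figure D4:**
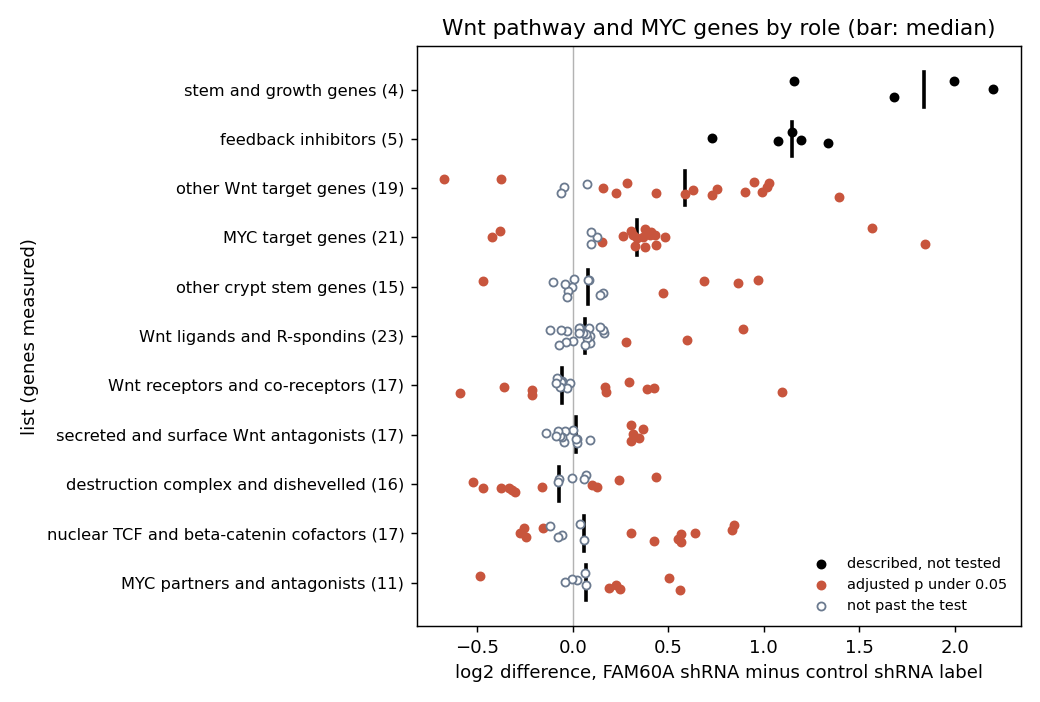
Log2 difference of each gene (horizontal axis) by list (vertical axis, number of genes measured), with a bar at the list median, black for the 9 genes described and red for other genes past the test. With each gene as the mean of all its probe sets, the 2 groups of described genes had medians of 1.84 and 1.15. On the same measure other Wnt targets had 0.59 and MYC targets 0.34, and the remaining lists shown lay between -0.07 and 0.08. All lists were chosen with earlier results of these data known.

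Genes whose values over the 6 arrays were closest to those of LGR5, by root mean square difference, were SRP14 (0.025), ID1 (0.032) and PTPRR (0.041). For AXIN2 they were ABAT (0.038), MTHFD2 (0.040) and SH3PXD2B (0.043). This likeness rests on 6 arrays that fall into the same 2 labels, so it picks genes with a difference of the same size, 1.98 to 2.02 for LGR5 and 1.07 to 1.10 for AXIN2.

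Among 13 markers of intestinal epithelium, 6 rose, 1 fell and 6 missed the threshold, and the 53.8% called lay near the 44.9% of all genes. The marker that fell was TFF3 (-0.22, limma adjusted p = 0.0030). Their mean value ran from -0.18 to -0.14 in the arrays labelled control shRNA and from 0.13 to 0.15 in those labelled FAM60A shRNA. KRT20 (1.2), a keratin of mature colonocytes, and CDX2 (1.0), the intestinal homeobox factor, had their lower arrays in the highest class. So did all 3 probe sets of EPCAM (0.06, not past the test), which was singled out after its values were seen. In contrast, 6 of the 13 genes had every probe set in the lowest class, VIL1, MUC2 and LGALS4 among them. The part of these markers in the differences of LGR5, ASCL2 and the others was not tested. Of 13 thyroid follicular genes, 0 rose and 1 fell, HHEX (-0.97), while DUOX1 had -0.15 (adjusted p = 0.064), which passed with the median of probe sets (-0.15) and without the lowest class (-0.12). Of their 40 probe sets, 25 were in the lowest class and 1 in the highest. Of the 24 probe sets of the intestinal markers, 11 were in the lowest class and 7 in the highest. By gene, 3 of the 13 thyroid genes had every probe set in the lowest class, beside 6 of the 13 intestinal markers. TSHR, the thyrotropin receptor, was among those thyroid genes, with 3 of 3 probe sets, and was singled out after its values were seen. Other thyroid genes lay higher. PAX8 and DUOX1 each had 3 of 4 probe sets in the class of 4 to 8, TG had 2 of 3, and FOXE1 and HHEX had 1 of 1.

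Fibroblast markers gave 0 of 10 past the test, where 44.9% of all genes passed, with PDGFRA at -0.08 and COL1A2 at -0.06. Endothelial markers gave 1 of 9, EGFL7 (0.19), with CLDN5 at 0.10. Leukocyte markers gave 2 of 9, CD68 (0.26) and CD79A (0.14). CD79A did not pass without control replicate 1 (0.12) or FAM60A replicate 2 (0.12) or 3 (0.14), nor with the probe set of largest variance (0.24), the median of probe sets (0.10) or either probe set filter (0.085 and 0.11).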

How the data were processed

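RNA of 6 samples was hybridised to 1 array each, and groups were taken from the sample titles. The deposited log2 values of 49395 probe sets were made by the authors with RMA, per the submitters' processing notes. For RMA's version and the genome build, the sources used here give nothing. The values had also been centred on each probe set's median over the 6 arrays (largest remaining median 5e-07), and base 2 was taken because RMA gives log2 values. The platform annotation gave 1 symbol to 44988 probe sets once 102 control probe sets were left out, several to 1832 (not named) and none to 2569.

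A gene was the mean of its probe sets. The fit used limma 3.58.1 (lmFit, eBayes) under R 4.3.3 over all 18132 genes, with Benjamini-Hochberg adjustment and a threshold of 0.05, after a check on simulated data. The members and lists were chosen with earlier results of these data known, and so support nothing about direction. Named genes were SINHCAF, the members, up to 3 highest and 3 lowest called genes per list without overlap, all paralogs, CCND1, CTNNB1, APC and TCF7L2, 2 genes of smallest p per marker list and the 3 closest profiles. EPCAM, TSHR, DVL2, OLFM4 and SMOC2 were added after their values were seen. Level classes came from the rounding step shared by the 6 values. The number of arrays limits the precision.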

Additional observations from a re-analysis of the deposited data

How the results depend on the processing

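All 9 described genes stayed higher under 14 alternatives: 2 other scalings, the replicate block, 2 other gene summaries, 2 probe set filters, robust moderation and leaving out each array. Some of these could not change the differences. The replicate block and robust moderation leave them as they are, and 0 of the 22 probe sets were in the lowest class that 1 filter removes. For ASCL2, MYC, NKD2 and ZNRF3, read by 1 probe set each, the gene summaries and filters also changed nothing. With the arrays quantile normalized again the median difference was 1.04 for the feedback inhibitors and 1.59 for the stem and growth genes, and with the probe set of largest variance 1.33 and 1.94. Leaving out 1 array gave 1.10 to 1.18 and 1.82 to 1.86. Calls among Wnt ligands rose from 3 to 5 after another quantile normalization, 6 after cyclic loess, 5 with the probe set of largest variance, and 3 to 5 when 1 array was left out. Calls among other crypt stem genes rose from 5 to 9 after cyclic loess. Without x_at and s_at probe sets 12142 of the remaining probe sets passed, against 18609 of all, so these counts are over different sets. With that filter LGR4 turned to -0.054. Without the lowest class MYCN turned to 0.122 (adjusted p = 0.0305). The same filter moved the list median of the nuclear partners from 0.06 to 0.18 and of the secreted and surface antagonists from 0.02 to 0.17. That of the MYC partners and antagonists moved from 0.07 to 0.12. Without x_at and s_at probe sets the nuclear partners had a median of 0.22, and the destruction complex list moved from -0.07 to -0.17. The causes of these changes were not tested.

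The replicate numbers did not pair the samples by the rule used, with correlations of deviations of 0.16, 0.059 and 0.078 for the same number, although every sample correlated best with its own number. With the replicate block 5 ligands passed, AXIN1 (0.10, adjusted p = 0.064) and APC (-0.16, adjusted p = 0.071) lost their calls, and SINHCAF stayed at 1.24. Over all named genes and alternatives, 862 of the recomputed values kept their side of the threshold, 32 of 7 genes lost it, 7 of 3 genes gained it and 2, given above, turned and were called on one side. Another 9 values of MYCN, SOX10 and TCF7L1, counted among those kept, changed sign without passing on either side. Level classes are coarse and give only the level of the lower arrays. A probe set of the lowest class can therefore still show a fall, as 1 of APC did (-0.40, called).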
